A study of Mus musculus with 6 samples.

Results

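The genes of cholesterol and fatty acid synthesis were examined in HK-2 cells, an immortalized line of human proximal tubular epithelial cells, with and without overexpression of USAG-1. The set was listed by name, with earlier results of these data known. It held 31 genes, each found once among the 39234 genes of the deposited table. It comprised 18 enzymes of the sterol branch (7 of the mevalonate arm and 11 from squalene onward), 5 genes for regulators and a sterol carrier, and 8 genes of the fatty acid branch. RNA was sequenced from 6 cultures, 3 labelled as control and 3 labelled USAG1_OE, and every culture carries the genotype label WT. According to the study's methods, overexpression in cultured cells was by transient transfection of an expression plasmid, and the cells were kept in medium with fetal bovine serum. The labels name neither the plasmid given to the control cultures nor the time after transfection, and do not say whether the cultures were independent. The study's methods speak of biological replicates for most experiments without naming the sequencing, so p-values measure the spread between these 6 libraries, which may be technical. The comparison asks how the level of each gene differed between USAG-1-overexpressing and control cells, with the sterol and fatty acid branches kept apart.

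Cholesterol is built from acetyl-CoA through mevalonate, isoprenoid pyrophosphates, squalene and lanosterol, and fatty acids are built from the same precursor through malonyl-CoA. Both routes are governed by the SREBP transcription factors, which are made as membrane precursors in the endoplasmic reticulum. When sterols are scarce, SCAP escorts SREBP to the Golgi apparatus, where it is cleaved and its active part is released to the nucleus. When sterols are plentiful, INSIG proteins hold SCAP back. SREBP-2, from SREBF2, acts mainly on sterol genes, and SREBP-1c, from SREBF1, mainly on fatty acid genes. Newly made and imported sterols and the unsaturated fatty acids made by desaturases are among the lipids of cell membranes.

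Library totals ranged from 41236194 to 48699471 counts. SOSTDC1, the gene for USAG-1, had 60 to 80 counts in control libraries and 3907 to 5072 in USAG-1-overexpressing libraries, in the direction of the labels. Control replicate 3 stood apart from the other control libraries: it scored -54.3 on the second principal component, against 28.2 and 25.2, and a chi-square comparison of its counts with theirs gave 47.2 and 47.7 per degree of freedom, against 6.87 between the other two. Mitochondrially encoded genes took 4.80 to 5.59% of the counts in control libraries and 1.50 to 1.55% in USAG-1-overexpressing libraries. Of 18 proximal tubule and epithelial markers 11 were tested and 3 were called at an edgeR adjusted p under 0.05, all higher. This is 27.3% of those tested, beside 15.9% of all genes tested (8.95% higher and 6.91% lower). KRT8, KRT18, PAX8 and GGT1 were well expressed, whereas LRP2 had no count and CUBN, AQP1, HNF4A and CDH1 stayed below 1 CPM on average in both groups. Of 18 T and NK cell markers 16 were called lower in USAG-1-overexpressing cells and 0 higher (88.9%, beside 15.9% of all genes tested). The 18 genes summed to 117 to 134 CPM in control and 30.8 to 40.2 CPM in USAG-1-overexpressing libraries. IL7R was the only one with a fold change above 0. It made up 17.8 to 21.9 CPM of the sum in control and 21.9 to 27.6 CPM in USAG-1-overexpressing libraries. In bulk RNA, fewer cells of a type and less RNA per cell cannot be told apart. B cell markers and platelet and erythroid markers summed to at most 4.19 CPM in each library. Myeloid markers summed to 112 to 199 CPM in control and 164 to 184 CPM in USAG-1-overexpressing libraries. Of these 8 genes 1 was called higher and 2 lower (37.5%, beside 15.9% of all genes tested). CD68, the higher gene, made up 74.0 CPM of the sum on average in control and 116.5 CPM in USAG-1-overexpressing cells. LYZ and ITGAM were called lower, and 6 of the 8 fold changes were below 0. In control replicate 3 S100A8 and S100A9 stood at 23.0 and 47.9 CPM. The part of these other transcripts in the results below was not tested.

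All 31 genes passed the filter on low counts, and 13 were differentially expressed at an edgeR adjusted p under 0.05, 8 of them higher and 5 lower in USAG-1-overexpressing cells. This is 41.9% of the set, against 15.9% of all 18188 genes tested (8.95% higher and 6.91% lower). With at least 10 counts required in every library, 19% of all genes passed. Since the set was chosen with earlier results of these data known, these shares are given as a description. In the sterol branch 6 of 18 genes rose and 2 fell, among the regulators 1 of 5 rose and 1 fell, and in the fatty acid branch 1 of 8 rose and 2 fell. The median log2 fold change was 0.20 in the sterol branch, 0.11 among regulators and -0.01 in the fatty acid branch, against -0.02 over all genes tested. The changes were small: 1 gene, TM7SF2, differed by 2-fold or more, and INSIG1 was the only other called gene past 1.5-fold. Each branch held genes that rose and genes that fell.

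**Figure D1:**
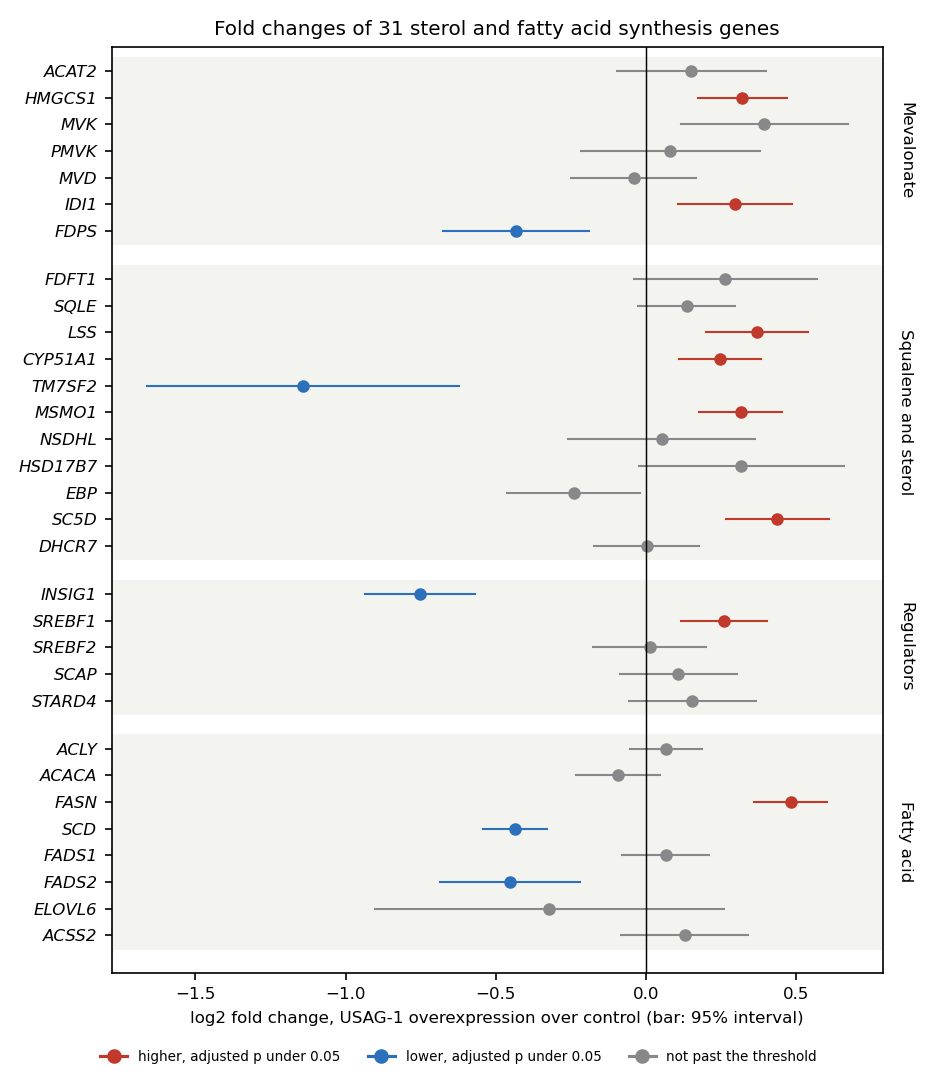
The log2 fold change of each of the 31 genes in USAG-1-overexpressing over control cells (x axis), with its 95% interval, grouped by role (y axis). Red and blue mark the 8 genes that were higher and the 5 that were lower at an edgeR adjusted p under 0.05, and grey marks the 18 that did not pass. The sterol enzymes lie mostly to the right of 0, with FDPS and TM7SF2 on the left, and INSIG1 and FASN lie on opposite sides.

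The groups did not overlap in CPM for 16 of the 31 genes, 10 higher and 6 lower, and among all genes tested they did not overlap in 37.6% (19.4% higher and 18.1% lower). The 3 genes without overlap that did not pass the test were MVK, EBP and ACLY. Levels below are CPM on the TMM scale and are compared between groups for 1 gene at a time, since CPM is not corrected for transcript length.

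**Figure D2:**
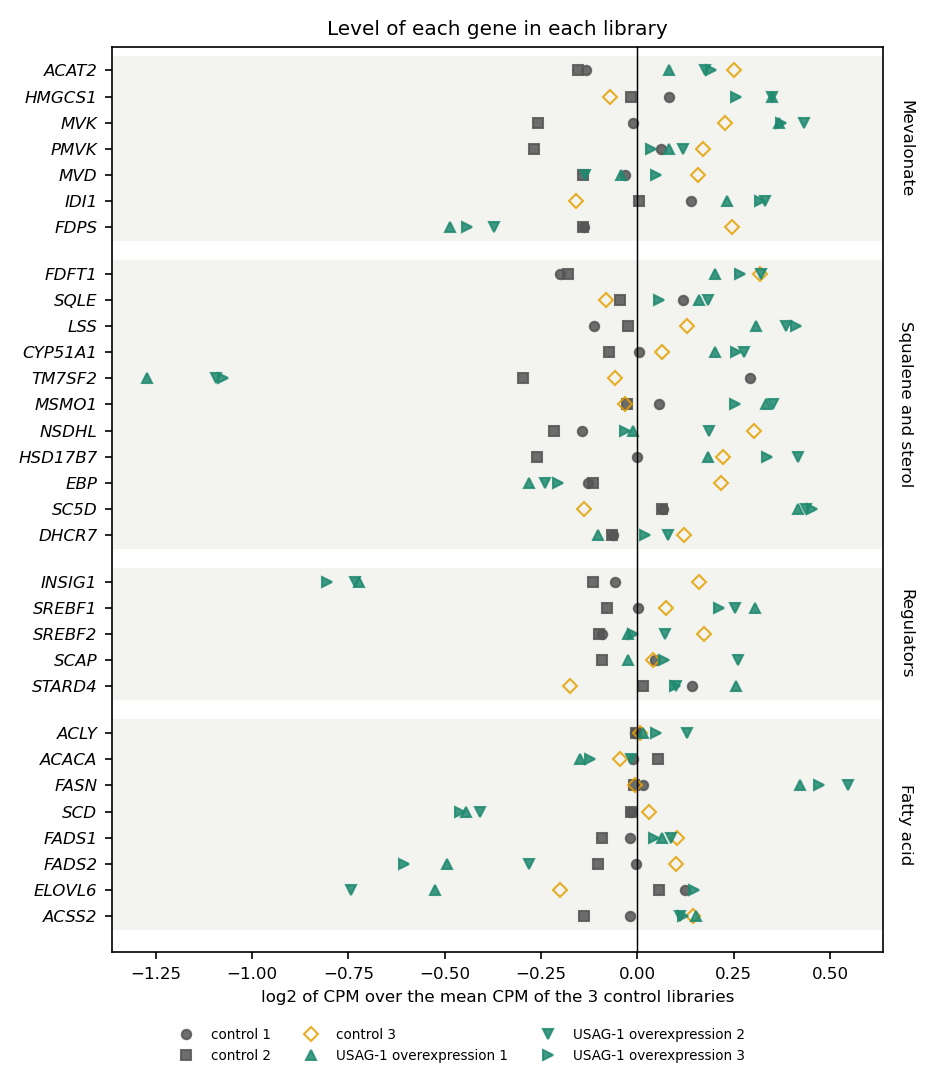
The level of each gene in each library, as the log2 of its CPM over the mean CPM of the 3 control libraries (x axis), with genes grouped by role (y axis). Open diamonds are control replicate 3, grey symbols the other control libraries and green triangles the USAG-1-overexpressing libraries. For FASN and SCD the control libraries lie close together and apart from the triangles, whereas for FDFT1 and ACAT2 control replicate 3 lies among or beyond the triangles.

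The mevalonate arm turns acetyl-CoA into farnesyl pyrophosphate, and in it HMGCS1 and IDI1 rose while FDPS fell. HMGCS1 (ENSG00000112972; hg38 chromosome 5, 43287470 to 43313512), the synthase that makes HMG-CoA, had 80.9, 75.4 and 72.8 CPM in the control libraries and 97.3, 97.4 and 91.2 CPM in the USAG-1-overexpressing libraries. Every USAG-1-overexpressing library lay above every control library, and the log2 fold change was 0.32 (standard error 0.06, edgeR adjusted p = 0.0137). IDI1 (ENSG00000067064; chromosome 10, 1039152 to 1049103), which interconverts the isoprenoid building blocks, had 64.7, 58.9 and 52.6 CPM in control and 69.0, 73.9 and 73.2 CPM in USAG-1-overexpressing libraries. The gap between the groups was narrow for IDI1, and its log2 fold change of 0.29 (standard error 0.08) stood close to the threshold (edgeR adjusted p = 0.0464).

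FDPS (ENSG00000160752; chromosome 1, 155308748 to 155320666), farnesyl pyrophosphate synthase, acts directly after IDI1 and moved the other way. Its levels were 161, 161 and 209.8 CPM in control and 126, 137 and 130.3 CPM in USAG-1-overexpressing libraries. Control replicate 3 was the highest of all, yet the other control libraries also lay above the USAG-1-overexpressing ones. The log2 fold change was -0.43 (standard error 0.11, edgeR adjusted p = 0.0292), and it was -0.29 (adjusted p = 0.00133) without control replicate 3. FDPS has pseudogene copies in the table, and the 6 of them named FDPSP held at most 21 counts each over all libraries together. RUSC1-AS1, on the opposite strand, overlaps it at a mean of 4.47 CPM.

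The remaining genes of this arm did not pass the test. MVK, mevalonate kinase, had 17.8, 15.1 and 21.1 CPM in control and 23.2, 24.3 and 23.3 CPM in USAG-1-overexpressing libraries, without overlap, a change of 0.39 on the log2 scale (95% interval 0.11 to 0.67, edgeR adjusted p = 0.0634). It passed with DESeq2 (adjusted p = 0.028), with library sizes alone as the scaling (adjusted p = 0.038) and without control replicate 3 (0.53, adjusted p = 0.00268). MVK overlaps MMAB on the opposite strand, which had 30.7 ± 6.04 CPM (SD, n = 3) in control and 24.8 ± 1.46 CPM in USAG-1-overexpressing cells. ACAT2, the cytosolic acetoacetyl-CoA thiolase, had 140.5, 138 and 184 CPM in control and 163, 174 and 176 CPM in USAG-1-overexpressing libraries, so that control replicate 3 lay above all other libraries. Its log2 fold change was 0.15 (95% interval -0.10 to 0.40), and 0.30 (edgeR adjusted p = 0.00129) without that library. For the kinase PMVK the interval was -0.22 to 0.38 and for the decarboxylase MVD it was -0.25 to 0.17, both spanning 0.

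From squalene onward, LSS, CYP51A1, MSMO1 and SC5D rose and TM7SF2 fell. LSS (ENSG00000160285; chromosome 21, 46188141 to 46228822), lanosterol synthase, which closes the sterol rings, had 73.7, 78.3 and 87.1 CPM in control and 98.6, 104 and 106 CPM in USAG-1-overexpressing libraries. The groups were apart, and the log2 fold change was 0.37 (standard error 0.07, edgeR adjusted p = 0.0141). CYP51A1 (ENSG00000001630; chromosome 7, 92084987 to 92134503), lanosterol 14-alpha-demethylase, had 99.0, 93.9 and 103 CPM against 114, 119.7 and 118 CPM, a change of 0.25 on the log2 scale (standard error 0.06, edgeR adjusted p = 0.0288). CYP51A1 overlaps AKAP9 on the opposite strand, which had 38.9 ± 16.3 CPM (SD, n = 3) in control and 54.4 ± 2.85 CPM in USAG-1-overexpressing cells, and its pseudogene copies CYP51A1P2 and CYP51A1P1 held 217 and 162 counts over all libraries.

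MSMO1 (ENSG00000052802; chromosome 4, 165327667 to 165343164), the methylsterol monooxygenase that acts after CYP51A1, had 59.4, 56.0 and 55.8 CPM in control and 71.9, 72.8 and 68.1 CPM in USAG-1-overexpressing libraries. The spread within each group was small beside the gap, and the log2 fold change was 0.31 (standard error 0.06, edgeR adjusted p = 0.0115). SC5D (ENSG00000109929; chromosome 11, 121292681 to 121313410), the sterol C5-desaturase, had 33.6, 33.5 and 29.1 CPM in control and 42.8, 43.5 and 44.0 CPM in USAG-1-overexpressing libraries. Among the sterol enzymes SC5D had the largest rise that passed the test, 0.44 on the log2 scale (standard error 0.07, edgeR adjusted p = 0.00704), and control replicate 3 was its lowest library.

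TM7SF2 (ENSG00000149809; chromosome 11, 65111845 to 65116384), a sterol C14-reductase, was the least covered gene of the sterol branch, with 140, 110 and 112 counts in control and 52, 56 and 56 counts in USAG-1-overexpressing libraries. In CPM these were 3.35, 2.23 and 2.63 against 1.13, 1.28 and 1.30, a change of -1.14 on the log2 scale (standard error 0.23, edgeR adjusted p = 0.0129). VPS51, on the same strand, ends at 65111862, so that it overlaps TM7SF2 only at the first bases of that gene. Sharing of reads was not tested. VPS51 had 44.6 ± 6.94 CPM (SD, n = 3) in control and 40.2 ± 3.66 CPM in USAG-1-overexpressing cells, a change of -0.15 on the log2 scale (95% interval -0.42 to 0.12). LBR, a nuclear envelope protein with the same reductase activity, had 154 ± 15.6 and 163 ± 2.77 CPM (SD, n = 3 each) and did not pass the test.

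The other sterol enzymes gave intervals that spanned or nearly reached 0. FDFT1, squalene synthase, had 143, 146 and 206 CPM in control and 189.7, 206 and 198 CPM in USAG-1-overexpressing libraries. Control replicate 3 thus matched the USAG-1-overexpressing libraries, and the log2 fold change was 0.26 (95% interval -0.04 to 0.57) with it and 0.46 (edgeR adjusted p = 1.26e-04) without it. SQLE, squalene epoxidase, had 183, 164 and 159.8 CPM against 189, 192 and 176 CPM, with overlap and a log2 fold change of 0.13 (95% interval -0.03 to 0.30). NSDHL, which takes part in removing the sterol 4-methyl groups, and HSD17B7, the ketoreductase of the same complex, had intervals of -0.26 to 0.36 and -0.03 to 0.66. The isomerase EBP was lower without overlap, with 93.9, 94.8 and 119 CPM in control and 84.5, 86.9 and 89.0 CPM in USAG-1-overexpressing libraries, a change of -0.24 on the log2 scale that did not pass (edgeR adjusted p = 0.13). DHCR7, which takes the last step to cholesterol, had a log2 fold change of 0.00 (95% interval -0.17 to 0.18), with 132 CPM on average in both groups.

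Among the regulators, INSIG1 fell and SREBF1 rose. INSIG1 (ENSG00000186480; chromosome 7, 155297776 to 155310235), the protein that retains SCAP in the endoplasmic reticulum and itself a target of SREBP, had 149, 143 and 173 CPM in control and 94.2, 93.4 and 88.8 CPM in USAG-1-overexpressing libraries. The lowest control library stood far above the highest USAG-1-overexpressing one. Its level was 0.593 times that in control cells, a change of -0.75 on the log2 scale (standard error 0.08, edgeR adjusted p = 0.00113), and -0.66 without control replicate 3. The related gene INSIG2 had 5.78 ± 0.469 and 5.64 ± 0.504 CPM (SD, n = 3 each), a change of -0.04 on the log2 scale (standard error 0.14).

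SREBF1 (ENSG00000072310; chromosome 17, 17810399 to 17836986) had 96.0, 90.8 and 101 CPM in control and 119, 114 and 111 CPM in USAG-1-overexpressing libraries. The groups were apart, and the log2 fold change was 0.26 (standard error 0.06, edgeR adjusted p = 0.0275). These counts do not separate the transcripts of SREBP-1a and SREBP-1c, and RAI1 overlaps the gene on the opposite strand with 75.9 ± 2.48 and 84.0 ± 3.69 CPM (SD, n = 3 each). SREBF2, the gene for SREBP-2, had 257, 255 and 308 CPM in control and 269, 287 and 271 CPM in USAG-1-overexpressing libraries, with a log2 fold change of 0.01 (95% interval -0.18 to 0.20). For SCAP the interval was -0.09 to 0.30 and for STARD4, a carrier that moves sterols between membranes, it was -0.06 to 0.37. The level of SREBP protein and its cleavage were not measured by these counts.

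In the fatty acid branch FASN rose while the desaturase genes SCD and FADS2 fell. FASN (ENSG00000169710; chromosome 17, 82078338 to 82098294), fatty acid synthase, had 515, 507 and 508 CPM in control and 683, 745 and 707 CPM in USAG-1-overexpressing libraries. The control libraries lay close together, and every USAG-1-overexpressing library lay well above them. The log2 fold change was 0.48 (standard error 0.05, edgeR adjusted p = 0.00123), or 1.40-fold.

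SCD (ENSG00000099194; chromosome 10, 100347233 to 100364826), stearoyl-CoA desaturase, places the first double bond in saturated fatty acids. It had 1430.1, 1429 and 1476 CPM in control and 1062, 1089 and 1051 CPM in USAG-1-overexpressing libraries. The log2 fold change was -0.44 (standard error 0.05, edgeR adjusted p = 0.00113), with no overlap and a similar spread in both groups. FADS2 (ENSG00000134824; chromosome 11, 61792980 to 61867354), the delta-6 desaturase of polyunsaturated fatty acid synthesis, had 29.4, 27.5 and 31.7 CPM in control and 21.0, 24.3 and 19.4 CPM in USAG-1-overexpressing libraries. Its log2 fold change was -0.45 (standard error 0.10, edgeR adjusted p = 0.0211). FADS2 overlaps FADS1 on the opposite strand and FEN1 on its own strand. FEN1 had 108 ± 13.0 and 91.7 ± 2.12 CPM (SD, n = 3 each), a change of -0.23 on the log2 scale (edgeR adjusted p = 0.112).

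FADS1, the delta-5 desaturase that acts after FADS2, had 208, 197 and 226 CPM in control and 219.8, 224 and 217 CPM in USAG-1-overexpressing libraries. The groups overlapped, with a log2 fold change of 0.07 (95% interval -0.08 to 0.21). ACLY, which supplies cytosolic acetyl-CoA from citrate, had 479.7, 481 and 484 CPM against 487, 527 and 498 CPM, a change of 0.07 on the log2 scale (95% interval -0.05 to 0.19) without overlap. ACACA, acetyl-CoA carboxylase, had 143, 149.9 and 139.9 CPM against 130.3, 143 and 132 CPM, a change of -0.09 on the log2 scale (95% interval -0.23 to 0.05). ACSS2, which makes acetyl-CoA from acetate, and the elongase ELOVL6 had intervals of -0.08 to 0.34 and -0.90 to 0.26. ELOVL6 was the least precise of the fatty acid genes, at 90 to 177 counts a library.

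**Figure D3:**
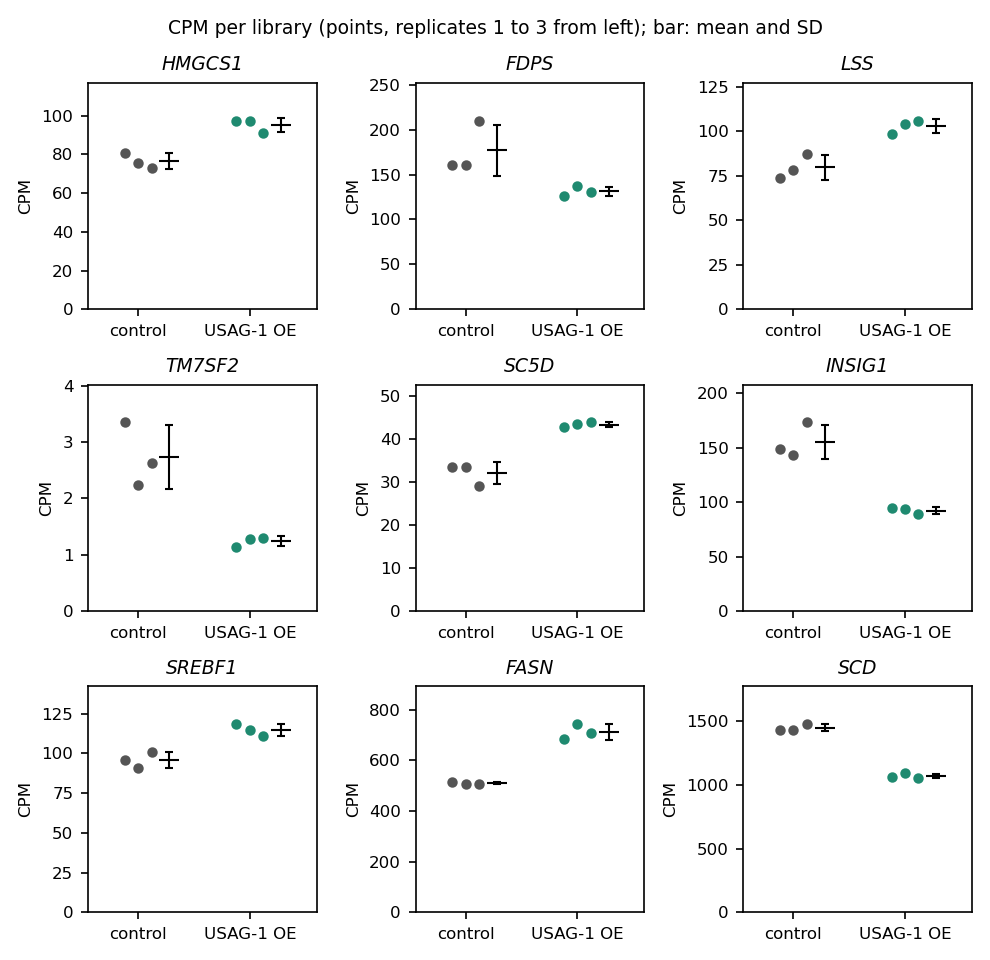
CPM (y axis, from 0) of 9 genes in each control and USAG-1-overexpressing library (USAG-1 OE), with the mean and SD of the 3 libraries of each group beside the points. INSIG1, SCD, FDPS and TM7SF2 lie lower and HMGCS1, LSS, SC5D, SREBF1 and FASN higher in every USAG-1-overexpressing library than in any control library.

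Ratios of counts within a library do not depend on the scaling between libraries. The pairs given here were chosen after the values above were seen and are not tested. SCD had 2.77, 2.82 and 2.91 counts per count of FASN in control libraries and 1.55, 1.46 and 1.49 in USAG-1-overexpressing libraries. INSIG1 had 1.84, 1.9 and 2.38 counts per count of HMGCS1, another target of SREBP, in control and 0.968, 0.960 and 0.973 in USAG-1-overexpressing libraries. The ratio of FDPS to IDI1, consecutive enzymes, was 2.49, 2.73 and 3.99 in control and 1.83, 1.85 and 1.78 in USAG-1-overexpressing libraries. FADS2 per FADS1 was 0.142, 0.139 and 0.140 in control and 0.0954, 0.109 and 0.0896 in USAG-1-overexpressing libraries. The ratio of SC5D to DHCR7, which act in succession, was 0.266, 0.266 and 0.203 in control and 0.349, 0.312 and 0.328 in USAG-1-overexpressing libraries. Since the 5 pairs join genes already seen to differ in their change, the separation of the groups in these ratios follows from the choice of pairs and is given as a description.

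Control replicate 3 differed from the other control libraries in these genes as well. It was above both in 20 of the 31 genes and below both in 8, whereas over all genes tested it was above both in 40.3% and below both in 41.6%. In the sterol branch it was above both in 12 of 18 genes, with a median log2 difference from their mean of 0.22, and in the fatty acid branch that median was 0.03. ACAT2, FDPS, FDFT1, NSDHL and EBP were among the genes that were high in it, and IDI1, SC5D and STARD4 among those that were low. Without this library 19 of the 31 genes were differentially expressed, 14 higher and 5 lower, where 27% of all genes passed (15.8% higher and 11.2% lower). The same 13 genes were among them, and ACAT2, MVK, FDFT1, NSDHL, HSD17B7 and FADS1 were added, all 6 higher. The sterol branch then had 11 of 18 genes higher and 2 lower.

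The calls differed in how often they held with 1 library left out. INSIG1, SC5D, FASN and SCD passed the test with any 1 library left out. Across these 6 fits the log2 fold change of INSIG1 ran from -0.81 to -0.66, that of SC5D from 0.38 to 0.47, that of FASN from 0.45 to 0.51 and that of SCD from -0.45 to -0.42. MSMO1 passed in 4 of the 6 fits, HMGCS1, LSS, FDPS and FADS2 in 3, IDI1 and TM7SF2 in 2, and CYP51A1 and SREBF1 in 1. Without USAG-1 overexpression replicate 1 or 2 only 5 of the 13 genes passed, and 6 passed without replicate 3, while 6.92%, 5.98% and 7.09% of all genes passed in those fits. Without control replicate 1 there were 9 and without control replicate 2 there were 8, where 10.2% and 8.74% of all genes passed. None of the 13 changed direction in any of these fits.

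Other ways of processing the counts moved the calls less. The same 13 genes were called with DESeq2's size factors in edgeR (15.7% of all genes), with limma-voom (15.9%), with at least 10 counts required in every library (19%) and when mitochondrially encoded transcripts did not enter the library sizes (15.7%). Library sizes alone gave 13 genes (16.1%), with MVK in place of IDI1, and DESeq2's own test gave 14 (19.2%), with MVK added. Without a filter on low counts 11 genes were called (6.26%), IDI1 and FDPS being lost. With a replicate block 10 were called (13.1%).

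**Figure D4:**
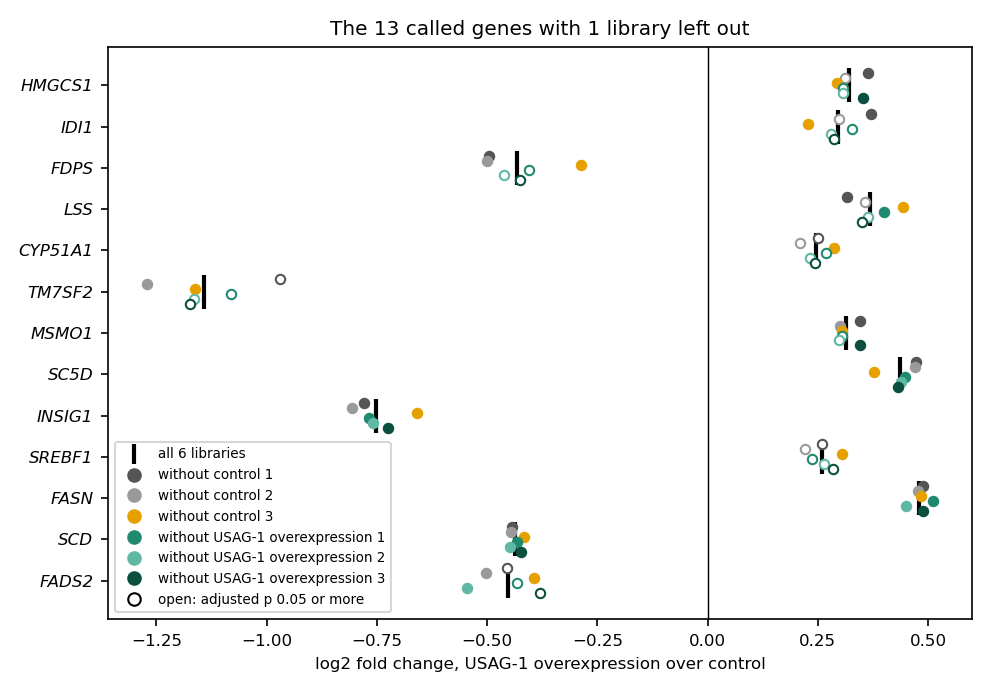
The log2 fold change (x axis) of the 13 differentially expressed genes (y axis) with all 6 libraries (bars) and with each library left out in turn (circles). Filled circles passed an edgeR adjusted p under 0.05 and open circles did not. INSIG1, SC5D, FASN and SCD have filled circles only, and all circles of a gene lie on the same side of 0.

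Other genes of lipid metabolism were taken from 6 lists. In sterol uptake, transport and esterification 8 of 16 genes tested passed (50%), 6 higher and 2 lower, against 15.9% of all genes. NPC1, which exports cholesterol from lysosomes, had 219.9, 214 and 227 CPM in control and 352, 369 and 345 CPM in USAG-1-overexpressing libraries. The groups were far apart, with a log2 fold change of 0.69 (standard error 0.05, edgeR adjusted p = 3.73e-04). The lipoprotein receptors VLDLR and SCARB1, the esterifying enzyme SOAT1 and the sterol transfer genes GRAMD1A and OSBPL2 made up the other higher genes. GRAMD1B, a related sterol transfer gene, had 45, 88 and 100 counts in control and 4, 4 and 11 counts in USAG-1-overexpressing libraries, a change of -3.57 on the log2 scale (standard error 0.51, edgeR adjusted p = 0.00346). Its mean level was low, at 1.74 CPM in control and 0.145 CPM in USAG-1-overexpressing cells. The 18 T and NK cell markers had a median log2 fold change of -3.29, and a link to GRAMD1B was not tested. STARD5 was the other lower gene of this list. Of the genes of this list, GRAMD1B and NPC1 were named by rule and the rest after their values were seen.

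Of 17 genes of SREBP processing and turnover 2 rose and 2 fell, which is 23.5% of the list beside 15.9% of all genes tested (8.95% higher and 6.91% lower). RNF145, a ubiquitin ligase of the endoplasmic reticulum, fell by 0.41 on the log2 scale (standard error 0.07, edgeR adjusted p = 0.00709). SEC24B, of the coat that carries cargo to the Golgi apparatus, rose by 0.32 (standard error 0.07, edgeR adjusted p = 0.0147). The SREBP proteases are encoded by MBTPS1, with a log2 fold change of 0.03, and MBTPS2, with one of 0.21 (edgeR adjusted p = 0.0541), and neither passed the test. Of 15 other sterol and isoprenoid enzymes 2 rose and 1 fell, or 20%, a share near that of all genes. CYB5R3, the reductase that supplies electrons to sterol and fatty acid desaturation, rose by 0.38 (standard error 0.07, edgeR adjusted p = 0.0118), and FNTB, the farnesyltransferase subunit, fell by 0.49 (standard error 0.11, edgeR adjusted p = 0.0194).

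Of 22 other fatty acid enzymes 6 rose and 1 fell, which is 31.8% of the list beside 15.9% of all genes tested (8.95% higher and 6.91% lower). ELOVL7, a fatty acid elongase, had 16.8, 13.8 and 16.9 CPM in control and 25.2, 25.3 and 26.1 CPM in USAG-1-overexpressing libraries, a change of 0.69 on the log2 scale (standard error 0.10, edgeR adjusted p = 0.00329). FADS3, the neighbour of FADS2 in the desaturase cluster, fell by 0.35 (standard error 0.06, edgeR adjusted p = 0.00675). In glycerolipid synthesis 17.6% of 17 genes passed, a share near that of all genes. In that list 1 gene rose and 2 fell, namely CEPT1, a choline and ethanolamine phosphotransferase, by 0.69 (standard error 0.08, edgeR adjusted p = 0.00128), and GPAM, the mitochondrial glycerol-3-phosphate acyltransferase, by 0.38 (standard error 0.06, edgeR adjusted p = 0.00521). Of 7 genes of the oxysterol receptor LXR and its targets 0 were called higher, beside 8.95% of all genes tested. A list of 7 is too short to tell 0 from that share, and other calls of this list are not reported here. SMPDL3A, of that list, had a log2 fold change of 0.34 (edgeR adjusted p = 0.123), and the sterol exporter ABCA1 had one of -0.11 (edgeR adjusted p = 0.257). The median log2 fold change lay between -0.05 and 0.09 in all 6 lists.

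**Figure D5:**
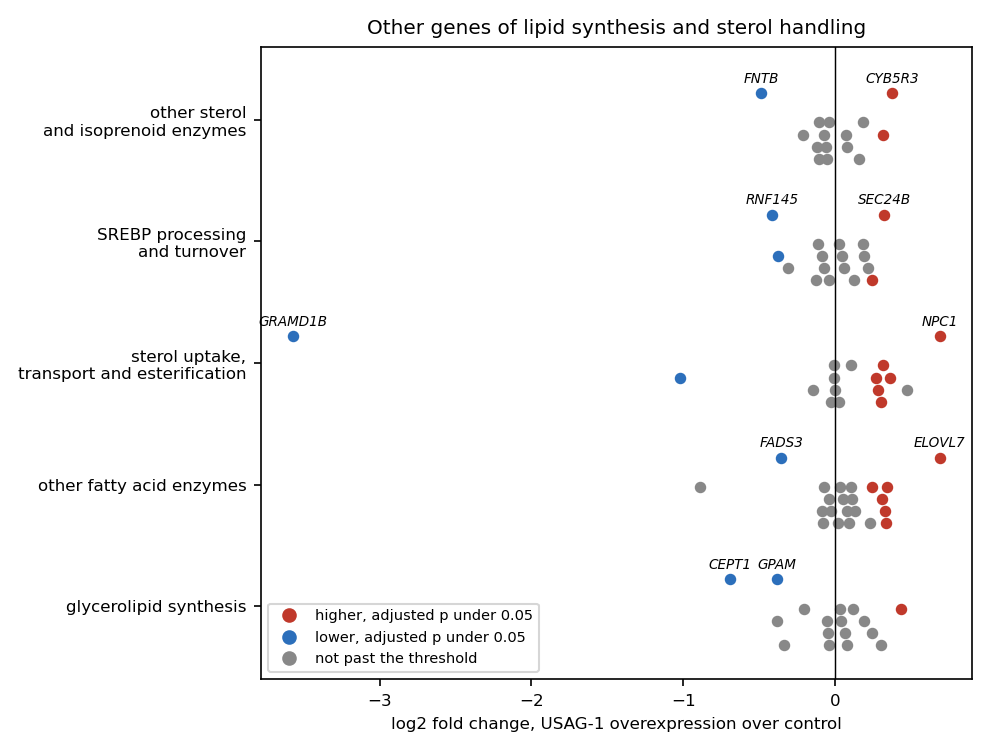
The log2 fold change in USAG-1-overexpressing over control cells (x axis) of each gene tested in 5 of the other lists (y axis), with the 2 genes of smallest p in each list named. Red and blue mark genes with an edgeR adjusted p under 0.05. Most genes lie close to 0, and NPC1, ELOVL7, CEPT1 and GRAMD1B lie farthest out among the named ones.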

How the data were processed

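The authors deposited 1 table of counts per gene for 6 RNA-seq libraries of HK-2 cells. Its values are whole numbers without normalization, although its name speaks of FPKM. The submitters' processing notes name hg38, cutadapt 1.9 and FastQC, and the aligner, the counting program and whether strand was used are not given in the sources used here. Libraries were poly(A)-selected and strand-marked by dUTP per the labels, another part of which names removal of ribosomal RNA. The labels also name mouse, whereas the line and the identifiers are human.

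After filterByExpr and TMM scaling, USAG-1-overexpressing libraries were compared with control libraries by the quasi-likelihood test of edgeR 4.0.16 (R 4.3.3), with group as the only term. Benjamini-Hochberg adjustment ran over 18188 genes. The study's methods name DESeq2 for other data, and DESeq2 1.42.0 and limma-voom (limma 3.58.1) were run as alternatives, with other scalings, filters, a replicate block and each library left out. A standard error is the size of the log2 fold change over the square root of F, and intervals are 95% intervals from it. At these depths 3 counts, the level that a count of 0 allows, were 0.0608 to 0.0719 CPM, and this covers counting error only. The code was tested on simulated data.

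The members and lists were chosen with earlier results of these data known. Lists were typed from general knowledge. All 31 members are named, with the 2 genes of smallest p in each other list, except that some items are not reported here. Other genes were named after their values were seen. Sequences were not used here. Figures were drawn with matplotlib 3.10.9.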

Additional observations from a re-analysis of the deposited data

How the results depend on the processing

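With 3 libraries a group, small changes near the threshold could not be called firmly. Of the 13 calls 4 held in all 6 fits with 1 library left out. Such fits also have fewer libraries, and the share of all genes called ran from 5.98 to 27% in them. The fold changes of the 13 called genes kept their direction under all 14 alternatives. DESeq2's size factors, limma-voom, a minimum of 10 counts in every library and library sizes counted without mitochondrial transcripts each called the same 13 genes. DESeq2's test added MVK, and library sizes alone called MVK and not IDI1. Without a filter on low counts IDI1 and FDPS were lost, and 1 sterol gene was lower. In that fit 2 genes of SREBP processing were called, against 4 in the main fit, while 6.26% of all genes passed, against 15.9%. DESeq2's test called 5 glycerolipid genes, against 3 in the main fit, while 19.2% of all genes passed, against 15.9%. GRAMD1B had no value with at least 10 counts in every library.

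With the replicate block IDI1, CYP51A1 and SREBF1 were lost, so that 0 regulators were higher. In that fit 2 genes of SREBP processing and 4 other fatty acid enzymes were called. All genes called were 2381 (13.1%), against 2884 (15.9%). The numbers were not taken to pair the libraries, since same-numbered libraries correlated by 0.0701, -0.0544 and 0.0371 in their deviations from the group means, and none of the 3 pairs passed 0.1.

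With 1 library left out, all genes called ran from 1137 to 5091, or 5.98 to 27% of those tested. In these fits sterol genes higher ran from 1 to 11 of 18 and lower from 0 to 2. Fatty acid genes higher ran from 1 to 2 of 8 and lower from 1 to 2, and regulators higher from 0 to 1 of 5. The medians ran from 0.15 to 0.26 in the sterol branch and from 0.026 to 0.13 among regulators. The other lists held 15, 17, 16, 7, 22 and 17 genes tested with all libraries, in the order given here. Isoprenoid enzymes called ran from 0 to 5, SREBP processing from 1 to 8, sterol uptake from 2 to 9 and LXR from 1 to 3. Other fatty acid enzymes ran from 3 to 11 and glycerolipid synthesis from 2 to 6. The counts of these 6 lists were at their highest without control replicate 3, where 27% of all genes passed. Fold changes near 0 changed sign: DHCR7 with DESeq2's size factors (-0.0032) and with at least 10 counts (-0.0071), and with a library left out DHCR7 (-0.037 to 0.072), NSDHL (-0.047 to 0.24), SREBF2 (-0.035 to 0.11), PMVK (-0.038 to 0.18) and MVD (-0.11 to 0.051). None of these passed the test except NSDHL without control replicate 3. The cause of these differences was not tested.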
